A study of Marchantia polymorpha with 18 samples.

Results

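The wound response of the desaturase double mutant Mpdes6fad5 of the liverwort Marchantia polymorpha was compared with that of Tak-1, the male wild-type accession, by RNA sequencing. For each gene the response difference was taken as the change from mock to wounded in Mpdes6fad5 minus the same change in Tak-1, on the log2(CPM + 1) scale, where CPM is the read count scaled to library size. The comparison used 12 of the 18 libraries, 3 each of mock Tak-1, wounded Tak-1, mock Mpdes6fad5 and wounded Mpdes6fad5. The other 6 libraries are of Mpcoi1, a mutant of the jasmonate receptor gene, and entered the fit for the estimate of spread and a later side-by-side reading. Of 20574 listed genes, the 13220 with at least 1 CPM in at least 3 libraries were tested. Each called gene was then sorted by whether the genotypes differed in the mock level, in the wounded level or in both.

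Plants of all groups were 3 weeks old, and each library pooled 6 to 8 plants from a separate biological replicate. Wounding was done with tweezers. The interval from wounding to freezing is 2 h in the treatment label and 90 min in the protocol, and which applies is unclear. Leaflets are named as the tissue, while apical fragments without gemma cups are described under growth. The sources used here give neither the kind of lesion in MpDES6 and MpFAD5 nor the number of mutant lines.

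Land plants respond to wounding by releasing polyunsaturated fatty acids from membranes and converting them, through lipoxygenases and CYP74 enzymes, into oxylipin hormones. In flowering plants the active ligand is jasmonoyl-isoleucine, whereas in Marchantia the receptor MpCOI1 perceives dinor forms of 12-oxo-phytodienoic acid and related molecules. Ligand binding removes the repressor MpJAZ, which is tethered to co-repressors through the adaptor MpNINJA. Fatty acid desaturases such as DES6 and FAD5 introduce double bonds into the acyl chains from which such ligands are made.

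Reads in genes ran from 19382332 to 25875925 over the 12 libraries, and a count of 0 allows a level between 0.107 and 0.158 CPM among these libraries (3 reads, a 95% limit that covers counting error only). Replicates of a group correlated at 0.994 to 0.997 across genes, apart from wounded Tak-1 replicate 3, at 0.986 and 0.988 with the other wounded Tak-1 libraries. Genes on the male V chromosome summed to 2105 to 3102 CPM in all 12 libraries, and the germline gene MpPRM was at or near 0. Transcripts of the targeted genes were present in Mpdes6fad5, so they do not check the genotype labels. Without wounding MpDES6 stood at 59.9, 73.4 and 72.0 CPM in Tak-1 and 43.8, 46.3 and 48.8 CPM in the mutant. MpFAD5 stood at 423, 482 and 495 CPM and at 252, 299 and 304 CPM. Both were lower in the mutant in mock and in wounded plants, and neither passed the test for the response difference (0.15 ± 0.16 SE, adjusted p = 0.575, and -0.16 ± 0.13, adjusted p = 0.425).

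The response to wounding differed between the genotypes for 1961 genes, 14.8% of those tested (limma, Benjamini-Hochberg adjusted p under 0.05). The signed response was larger in Mpdes6fad5 for 987 genes (7.47%) and smaller for 974 (7.37%). Among the 343 genes with a difference of at least 2-fold, 2.59% of those tested, 238 were larger and 105 smaller. The median absolute difference was 0.576 over the called genes and 0.187 over all tested, and the median signed difference over all tested was 0.0244. Without wounded Tak-1 replicate 3 the number of called genes was 2826.

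By the calls, the wounded level alone was the most frequent source of the difference. The genotypes differed in wounded plants alone for 1051 called genes (53.6%), in mock plants alone for 370 (18.9%) and in both for 510 (26%). For 30 genes neither level passed the test by itself. Among all tested genes, whatever their response difference, 24.7% differed only when wounded, 11.6% only in mock and 26.4% in both. The remaining tested genes differed at neither level, which held for only 30 called genes. The shares of called and of all tested genes thus have unlike bases. The sorting also depended on its rule and on the scaling. With a rule by size, where 1 level had to differ at least 3 times as much as the other, 820 called genes fell at both levels. With library totals 1263 of 1839 shared called genes kept their source. A call at only 1 level does not show that the other level was equal. Of the 1051 wounded-level genes, 959 had a 95% interval of the mock difference within 1.5-fold, and of the 370 mock-level genes 318 had such an interval for the wounded difference. These intervals are on the log2(CPM + 1) scale, where levels near 0 give small differences whatever their ratio. MpLEA-like28, a wounded-level gene, had 0, 0.0802 and 0.0443 CPM in mock Tak-1 and 0.264, 0.249 and 0.424 CPM in mock Mpdes6fad5. Its mock difference was 0.33. Near-equal levels by ratio are thus not shown for genes with few reads. The response difference is the wounded difference minus the mock difference, so this sorting describes the calls and is no separate test.

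**Figure D1:**
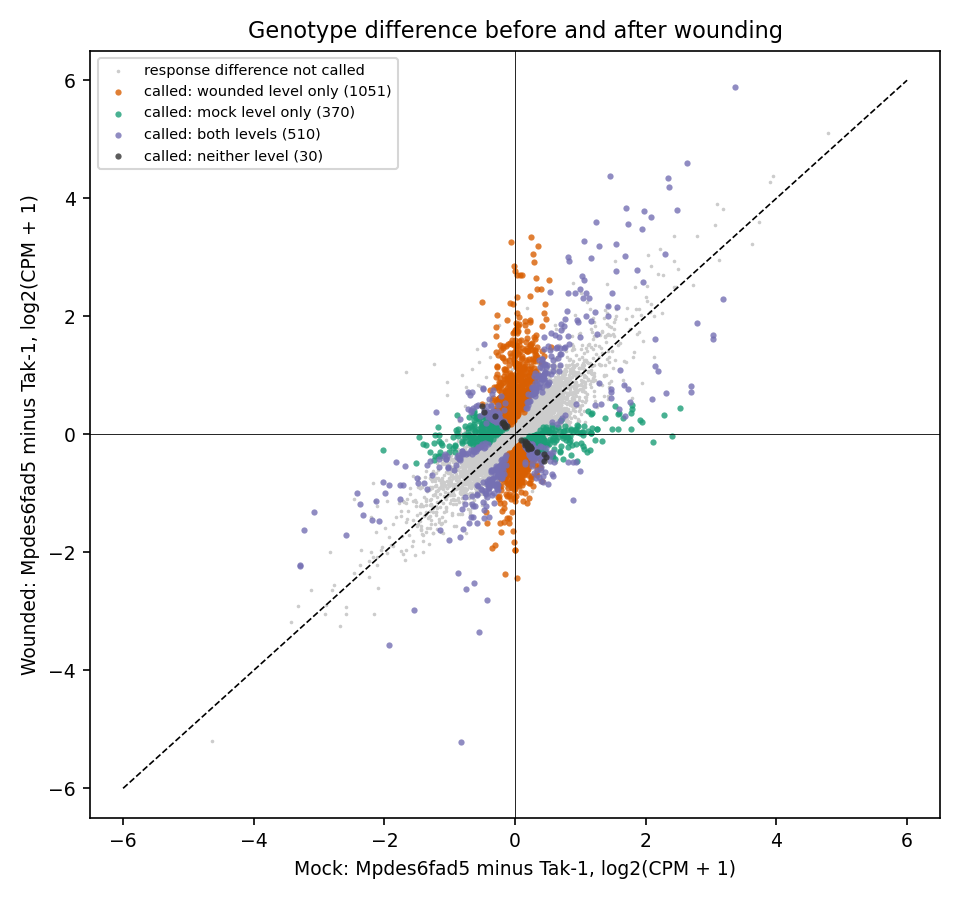
Each point is a tested gene, with the log2(CPM + 1) difference Mpdes6fad5 minus Tak-1 in mock plants on the x axis and in wounded plants on the y axis; the dashed line marks equal differences, colours mark the source of a called response difference, and 1 point lies outside the axes. The 1051 wounded-level genes spread along the vertical axis and the 370 mock-level genes along the horizontal axis.

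Larger and smaller responses were divided between the sources as follows. Among larger responses 524 genes differed at the wounded level only, 181 at the mock level only and 271 at both. Among smaller responses the numbers were 527, 189 and 239. Of the genes that differed at both levels, 251 differed in the same direction and more when wounded, 95 in the same direction and more in mock, and 164 in opposite directions.

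**Figure D2:**
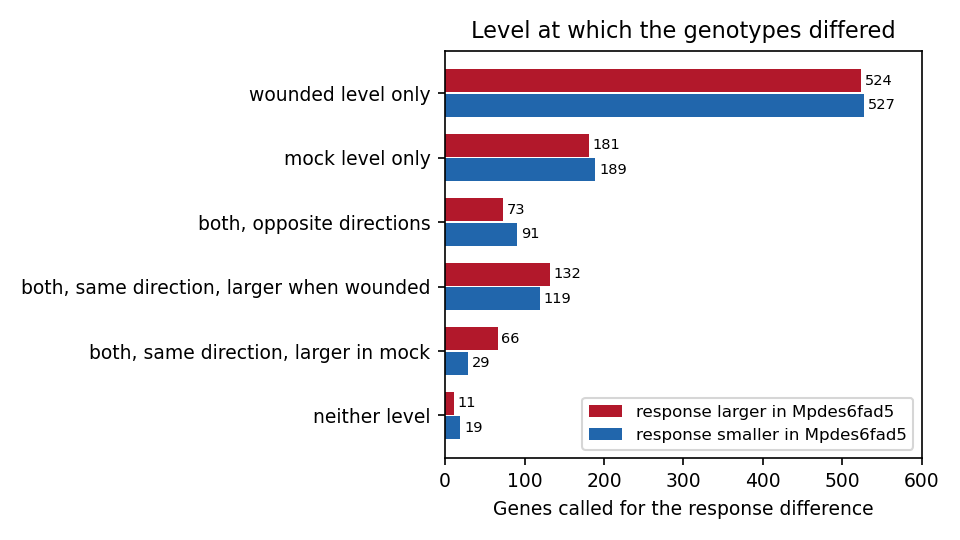
Bars count called genes by the level at which Mpdes6fad5 and Tak-1 differed, with larger responses in red and smaller responses in blue. The wounded-level bars, 524 and 527 genes, are the longest, and genes that differed at both levels in the same direction and more in mock number 66 against 29.

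The responses behind the differences also varied. Wounding changed 56.6% of the tested genes in Tak-1 (26% rose) and 57% in Mpdes6fad5 (28.1% rose). Of the 974 smaller responses, 369 were genes that rose in both genotypes, 209 rose in Tak-1 and were not called in Mpdes6fad5, 137 fell in both and 211 fell in Mpdes6fad5 alone by the calls. Of the 987 larger responses, 337 were genes that rose in Mpdes6fad5 and were not called in Tak-1, 276 rose in both, and 213 fell in Tak-1 and were not called in Mpdes6fad5. Only 108 genes had called responses in opposite directions.

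Where lipoxygenase and oxylipin genes differed, their signed response was smaller in Mpdes6fad5. Of 17 tested members, 7 had a smaller response and 0 a larger one, beside 7.37% and 7.47% of all tested genes. Their median response difference was -0.53, against 0.0244 over all genes. It was -0.262 with voom, which called 6 smaller members, and -0.317 without wounded Tak-1 replicate 1. The count of smaller members ran from 5 to 9 when each library was left out in turn. The source was both levels for 4 members, the wounded level for 2 and the mock level for 1.

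MpLOX4 (Mp5g21680), a lipoxygenase that adds oxygen to polyunsaturated fatty acids, was the list's strongest case. Its levels were 19.1, 22.5 and 25.6 CPM in mock Tak-1 against 394, 331 and 204 CPM in wounded Tak-1. In Mpdes6fad5 they were 7.44, 4.52 and 3.86 CPM in mock and 23.6, 19.7 and 30.5 CPM after wounding. The mutant lay below Tak-1 without overlap in both conditions, and its wounded level was near the unwounded level of Tak-1. The response difference was -1.64 ± 0.33 (adjusted p = 0.00308), made of a mock difference of -1.93 and a wounded difference of -3.57.

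More abundant members showed the same arrangement at smaller size. MpLOX2 was at 247, 252 and 250 CPM in mock Tak-1 against 1378, 1447 and 1281 CPM in wounded Tak-1. In Mpdes6fad5 it was at 215, 203 and 180 CPM in mock and 789, 727 and 746 CPM after wounding. It thus rose in both genotypes and reached a lower level in the mutant (response difference -0.53 ± 0.16, adjusted p = 0.0294). MpCYP74N2, of the family that converts lipoxygenase products, rose from a mean of 291 ± 27.0 CPM (SD, n = 3) to 997 ± 42.2 in Tak-1 and from 186 ± 11.6 to 430 ± 33.5 in Mpdes6fad5. Its response difference was -0.57 ± 0.10 (adjusted p = 0.00122).

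MpLOX8 differed at the wounded level only. It was at 7.54, 4.83 and 9.42 CPM in wounded Tak-1 and at 3.19, 2.64 and 2.54 CPM in wounded Mpdes6fad5, and the groups did not overlap. The mock difference of 0.22 had a 95% interval of -0.25 to 0.69. MpLOX14 went down rather than up: it fell in Tak-1 by 0.60 and in Mpdes6fad5 by 1.51 on the log2(CPM + 1) scale. MpLOX12 was the mock-level case, with 19.9, 20.3 and 17.9 CPM in mock Tak-1 against 44.1, 28.5 and 27.8 CPM in mock Mpdes6fad5. After wounding it lay at 9.54, 7.81 and 5.54 CPM in Tak-1 and 4.73, 5.05 and 6.36 CPM in the mutant, where the groups overlapped. The call of MpLOX6, below 6 CPM in every library, was lost in 8 of the 12 fits that left out a library. It also ended with a constant of 0.1 CPM (adjusted p = 0.411) and with a precision-weighted fit of read counts by limma's voom, where its sign turned (0.75, adjusted p = 0.726).

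Most dirigent genes with a called difference also had a smaller response. Dirigent proteins guide the coupling of phenoxy radicals in lignan and related pathways in flowering plants. Of 44 tested members 10 had a smaller response and 1 a larger one, beside 7.37% and 7.47% of all tested genes, while 33 were not called and the median over the list was 0.037. The source was the wounded level for 7 and both levels for 4 of the 11 called members. Without wounded Tak-1 replicate 3 there were 10 smaller and 7 larger members.

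A block of neighbouring dirigent genes on chromosome 5 held the largest of these differences. MpDIR65, MpDIR61, MpDIR42, MpDIR41 and MpDIR39 lie between Mp5g16430 and Mp5g16520 in the order of the identifiers. The 6 tested genes from Mp5g16430 to Mp5g16510 all had smaller responses, but not of the same form. Mp5g16430 has no dirigent symbol and differed at the mock level only. Its means were 9.19 CPM in mock and 2.82 CPM in wounded Tak-1, and 35 and 4.05 CPM in Mpdes6fad5. MpDIR61 had 0, 0.0401 and 0 CPM in mock Tak-1 against 0, 0 and 0.0942 CPM in mock Mpdes6fad5, within the detection limit. After wounding it was at 14.5, 11.3 and 16.7 CPM in Tak-1 and at 1.81, 2.64 and 1.07 CPM in Mpdes6fad5. Wounding thus raised it in both genotypes, to levels that did not overlap, and the response difference was -2.46 ± 0.24 (adjusted p = 3.83e-06).

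MpDIR41 had no read in any mock library of either genotype, and reached 4.85, 8.27 and 9.59 CPM in wounded Tak-1 against 1.19, 1.11 and 1.07 CPM in wounded Mpdes6fad5. MpDIR39 was more abundant, at 242, 252 and 308 CPM in wounded Tak-1 and 56.5, 45.7 and 53.3 CPM in wounded Mpdes6fad5, and it also differed in mock (-0.88 ± 0.16). The voom fit kept the direction of all 10 smaller members and the calls of 5. It did not call MpDIR61 (adjusted p = 0.0786), MpDIR41 (0.104), MpDIR65 (0.206), MpDIR39 (0.224) or MpDIR18 (0.772), and it did call MpDIR42 (0.0189) and MpDIR57 (0.019). Similar neighbours can share reads, and the sources used here do not say how ambiguous reads were counted.

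MpDIR17, elsewhere in the genome, did not depend on low mock values. It was at 266, 271 and 275 CPM in mock Tak-1 against 1613, 1591 and 1389 CPM in wounded Tak-1, and at 158, 178 and 170 CPM in mock Mpdes6fad5 against 592, 587 and 551 CPM in wounded Mpdes6fad5. The mutant was lower in both conditions, and the response difference was -0.72 ± 0.09 (adjusted p = 2.94e-05). The single larger member, MpDIR26, reached 109, 111 and 143 CPM in wounded Tak-1 and 294, 257 and 320 CPM in wounded Mpdes6fad5, with mock levels that overlapped.

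**Figure D3:**
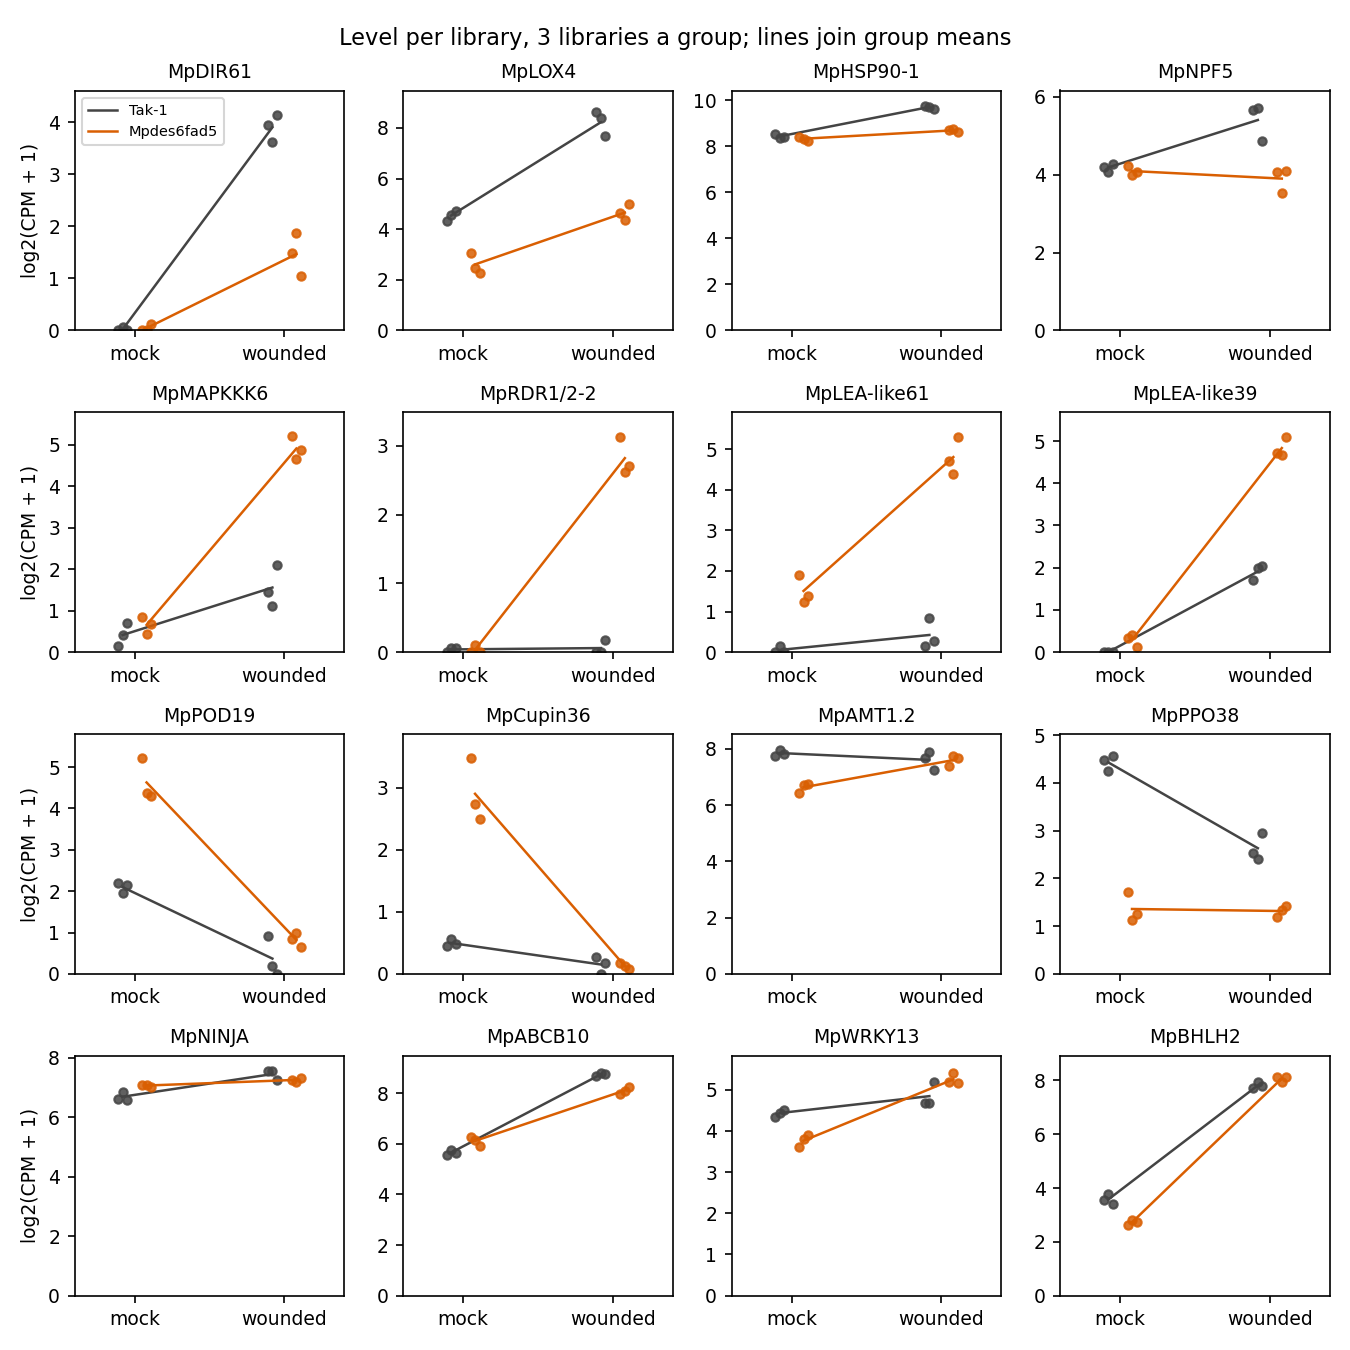
Points are single libraries, 3 per group, of 16 called genes on a log2(CPM + 1) axis, with Tak-1 in grey and Mpdes6fad5 in orange, and lines join the group means. The top row differs at the wounded level (MpLOX4 at both levels), the second row holds larger responses, the third row holds genes that differ in mock, and in the bottom row the mock and wounded differences have opposite signs.

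MpHSP90-1, a chaperone gene, rose less in the mutant and differed at the wounded level only. It was at 370, 329 and 340 CPM in mock Tak-1 against 341, 322 and 305 CPM in mock Mpdes6fad5, which overlapped. It reached 871, 852 and 800 CPM in wounded Tak-1 and 419, 437 and 391 CPM in wounded Mpdes6fad5. The response difference was -0.92 ± 0.10 (adjusted p = 1.17e-05), and the mock difference of -0.10 had a 95% interval of -0.25 to 0.05. Of the 6 tested heat shock genes, MpHSP90-1, MpHSP90-4 and MpHSP90-2 had smaller responses and MpHSP90-5 a larger one, all 4 by the wounded level, beside 7.37% and 7.47% of all tested genes. MpHSP90-5 was much weaker in reads, at 0.896 to 1.36 CPM in wounded Tak-1 and 3.71 to 5.53 CPM in wounded Mpdes6fad5.

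MpDHAR1, a dehydroascorbate reductase that recycles the antioxidant ascorbate, also rose less. Its mock levels were 88.8, 86.4 and 88.1 CPM in Tak-1 and 102, 94.6 and 92.7 CPM in Mpdes6fad5, which was the higher without overlap, by a difference that was not called (0.13 ± 0.07, adjusted p = 0.167). After wounding it was at 324, 319 and 289 CPM in wounded Tak-1 and 155, 188 and 191 CPM in wounded Mpdes6fad5, and its response difference was -0.94 ± 0.11 (adjusted p = 1.81e-05). MpNPF5, of a family of nitrate and peptide transporters, rose in Tak-1 by 1.22 ± 0.19 on the log2(CPM + 1) scale and was not called in Mpdes6fad5 (-0.19 ± 0.19). Its levels in wounded Tak-1 were 49.1, 51.1 and 28.0 CPM, the lowest being replicate 3, and in wounded Mpdes6fad5 15.7, 10.6 and 16.1 CPM. The auxin exporter genes MpPIN1 (-0.73 ± 0.18) and MpPIN4 (-0.62 ± 0.15) and the auxin response factor gene MpARFC1 (-0.37 ± 0.08) also had smaller responses by the wounded level. Of 26 tested auxin genes 3 had a smaller and 1 a larger response (15.4% called, near the 14.8% of all tested genes). The larger one, MpAUX1 (0.61, adjusted p = 0.0496), differed at the mock level, and its call was lost in 8 of the 12 fits that left out a library.

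At the other end were genes with a much higher level in wounded Mpdes6fad5. MpRDR1/2-2, an RNA-dependent RNA polymerase gene of the class that makes double-stranded RNA for silencing, had at most 0.132 CPM in the mock and wounded Tak-1 libraries. It was at 0, 0.0713 and 0 CPM in mock Mpdes6fad5 and at 7.79, 5.15 and 5.55 CPM in wounded Mpdes6fad5. The response difference was 2.77 ± 0.19 (adjusted p = 2.74e-07), and the voom fit kept the call (adjusted p = 0.000706). MpMAPKKK6, of the kinase family at the head of MAP kinase cascades, had the largest difference among genes with a symbol, 3.10 ± 0.36 (adjusted p = 2.79e-05). It reached 1.74, 1.16 and 3.30 CPM in wounded Tak-1 and 35.7, 24.2 and 28.0 CPM in wounded Mpdes6fad5, from mock levels that overlapped below 1 CPM.

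Among genes without a symbol, Mp4g21030 had the largest positive difference, 3.32 ± 0.34, and Mp2g18790 the largest negative one, -4.38 ± 0.34. Mp4g21030 was at 1.37, 1.63 and 3.30 CPM in wounded Tak-1 and 32.2, 22.8 and 28.3 CPM in wounded Mpdes6fad5. Mp2g18790 was at 67.6, 39.3 and 67.1 CPM in wounded Tak-1 and 0.531, 0.556 and 0.560 CPM in wounded Mpdes6fad5. Its mock levels were 0.103, 0.883 and 1.73 CPM in Tak-1 and 0 in all 3 mutant libraries, and the voom fit did not call its response difference (adjusted p = 0.568). Mp7g03650 was present throughout and kept its call there (adjusted p = 0.000144), at 188, 165 and 122 CPM in wounded Tak-1 and 20.1, 19.4 and 25.3 CPM in wounded Mpdes6fad5.

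Desiccation and abscisic acid genes included 25 with a larger response, more than any other list on the log2(CPM + 1) scale. With voom 7 of the 66 tested members remained, against 8 of 134 tested transport genes. The desiccation list is mostly late embryogenesis abundant (LEA) and dehydrin genes, whose proteins protect cells from drying. Of 66 tested members 25 had a larger response and 5 a smaller one, beside 7.47% and 7.37% of all tested genes, with a median difference of 0.459. Leaving out each library gave 23 to 28 larger and 1 to 7 smaller members, with 1 smaller without mock Mpdes6fad5 replicate 1, wounded Mpdes6fad5 replicate 1 or wounded Tak-1 replicate 2. The mutant was already higher in mock for 33 members, against 17.5% of all tested genes, and higher when wounded for 44, against 25.5%. Both levels differed for 22 of the 30 called members, the wounded level alone for 7 and the mock level alone for 1.

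These counts depended on the scale. On the log2(CPM + 1) scale a rise from near 0 counts for less than the same proportional rise from a higher level. With a constant of 0.1 CPM the list had 13 larger and 5 smaller members, with a constant of 5 CPM 31 and 3. With the voom fit, which works on proportions, it had 7 and 3, and the median became -0.0244. Of the 25 larger members, voom gave 19 the same sign.

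The 7 larger members also called with voom are described next. They were picked for keeping that call, so they say nothing of the scale dependence of the list, and apart from MpLEAL2 they were named after their values were seen. MpDHN2, a dehydrin gene, was at 26.7, 23.5 and 22.3 CPM in mock Tak-1 against 49.3, 42.2 and 36.5 CPM in mock Mpdes6fad5. After wounding it reached 85.8, 91.4 and 86.2 CPM in Tak-1 and 401, 337 and 398 CPM in Mpdes6fad5. The mutant was higher in both conditions without overlap, and the response difference was 1.30 ± 0.14 (adjusted p = 1.31e-05).

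MpLEAL2 was at 2.37, 6.37 and 5.50 CPM in wounded Tak-1 and 45.1, 36 and 48.8 CPM in wounded Mpdes6fad5, where it rose by 2.68 ± 0.25 while its change in Tak-1 was not called (0.47 ± 0.25). MpLEA-like4 differed only when wounded, at 16.6, 14.7 and 13.1 CPM in Tak-1 and 42.8, 37.1 and 50.9 CPM in Mpdes6fad5. MpLEA-like21 fell in Tak-1 by 1.44 and was not called in the mutant. The remaining members called by voom were MpLEA-like15, MpLEA-like30 and MpLEA-like50.

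Other LEA genes had large differences that were not called with voom. MpLEA-like39 had no read in mock Tak-1 and 2.27, 2.98 and 3.08 CPM in wounded Tak-1, while in Mpdes6fad5 it had 0.264, 0.321 and 0.0942 CPM in mock and 25.5, 24.4 and 33.4 CPM after wounding. Wounded levels did not overlap. Its difference was 2.63 ± 0.27 (adjusted p = 8.35e-06), and -0.07 with voom (adjusted p = 0.978), while constants of 0.1 and 5 CPM kept the call. Signs also turned for its neighbours between Mp6g02960 and Mp6g03070, where MpLEA-like34, MpLEA-like35, MpLEA-like36 and MpLEA-like40 had positive differences of 2.36, 1.60, 1.82 and 2.22 and negative ones of -1.47, -2.24, -2.36 and -0.15 with voom. Wounded levels of these genes were well above the detection limit in both genotypes, while mock levels in Tak-1 were at or near it.

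MpLEA-like61 had 25.2, 20 and 38.6 CPM in wounded Mpdes6fad5 and at most 0.790 CPM in wounded Tak-1, with a difference of 2.93 ± 0.33 that was 1.05 with voom (adjusted p = 0.703). MpLEA-like62, MpLEA-like18 and MpLEA-like14 had smaller responses, rose in both genotypes and were higher in the mutant in mock. Voom kept the call of MpLEA-like62 (adjusted p = 0.00444) and not those of MpLEA-like18 (0.0608) and MpLEA-like14 (0.14). MpABI3A, related to a seed transcription factor of the abscisic acid pathway in flowering plants, was at 30.1, 36.3 and 28.8 CPM in mock Tak-1 against 112, 92.1 and 90.9 CPM in mock Mpdes6fad5, and rose only in Tak-1 by the calls. MpCYP707A, of the family that inactivates abscisic acid in flowering plants, went the other way in mock, with 5.84, 6.14 and 7.39 CPM in Tak-1 and 1.02, 0.891 and 1.46 CPM in Mpdes6fad5. After wounding it was at 34.3, 35.1 and 37.8 CPM in Tak-1 and 29.4, 25.5 and 21.8 CPM in Mpdes6fad5, which left a larger response in the mutant (1.34 ± 0.26, adjusted p = 0.00198).

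**Figure D4:**
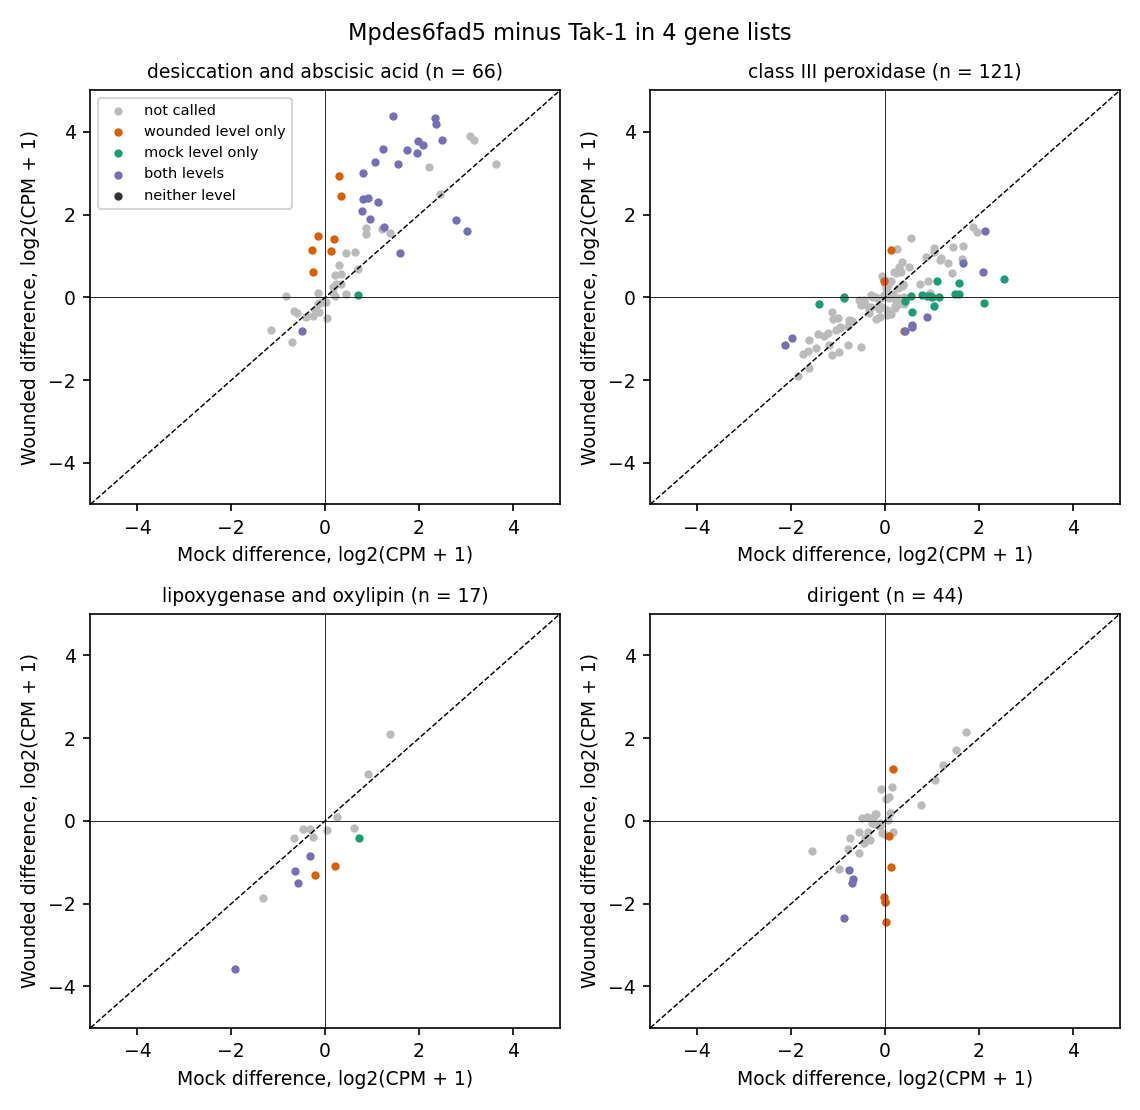
Each panel plots the members of a gene list, with the mock difference on the x axis and the wounded difference on the y axis, both Mpdes6fad5 minus Tak-1 on the log2(CPM + 1) scale. Called desiccation genes lie mostly in the upper right above the dashed line of equal differences, called peroxidases mostly along the horizontal axis, and called lipoxygenases below the line, as are the called dirigents apart from MpDIR26.

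Called class III peroxidases mostly differed in mock. These secreted enzymes oxidise phenolics and remodel the cell wall. Wounding lowered 95 of 121 tested members in Tak-1 and 88 in Mpdes6fad5, against 30.6% and 28.9% of all tested genes. The response was smaller for 23 members and larger for 7, beside 7.37% and 7.47% of all tested genes. For 18 of these 30 the genotypes differed in mock only, for 9 at both levels and for 3 when wounded only. Of the 23 smaller members, 21 fell in both genotypes, with the steeper fall in the mutant on the log2(CPM + 1) scale. The voom fit gave 21 of the 23 the same sign and called 9, and its sign turned for MpPOD158 (0.77) and MpPOD70 (0.02). Leaving out each library gave 17 to 26 smaller and 3 to 12 larger members, the 12 without wounded Tak-1 replicate 3.

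MpPOD19 was at 3.57, 2.85 and 3.45 CPM in mock Tak-1 against 36, 19.6 and 18.8 CPM in mock Mpdes6fad5. After wounding it was at 0.896, 0.139 and 0 CPM in Tak-1 and 0.796, 0.973 and 0.560 CPM in Mpdes6fad5. The mock groups stood apart and the wounded groups overlapped, with a response difference of -2.08 ± 0.34 (adjusted p = 0.000633). MpPOD13 had the same form, with 0.602 to 0.797 CPM in mock Tak-1 against 4.38 to 9.06 CPM in mock Mpdes6fad5. Both lost their call with voom (adjusted p = 0.886 and 0.207).

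Among better-expressed peroxidases some kept their call with voom and others did not. MpPOD141, at 78.6 to 87.3 CPM in mock Tak-1 and 99.5 to 138 CPM in mock Mpdes6fad5, lost it (adjusted p = 0.0552), as did MpPOD60 (0.0773) and MpPOD107 (0.217). MpPOD47, which kept it, was at 34.3, 31.2 and 30.6 CPM in mock Tak-1 against 84.4, 56.6 and 56.5 CPM in mock Mpdes6fad5, and at 13.2, 11.9 and 7.39 CPM in wounded Tak-1 against 9.03, 11.0 and 12.5 CPM in wounded Mpdes6fad5 (these 4 were named after their values were seen). MpPOD112, which also kept its call, crossed over, at 31.6, 35.0 and 34.0 CPM in mock Tak-1 against 66.9, 44.4 and 43.0 CPM in mock Mpdes6fad5, but at 18.6, 15.4 and 11.7 CPM against 7.70, 9.18 and 9.62 CPM after wounding. MpPOD96 and MpPOD121 also had a positive mock and a negative wounded difference. The most abundant called member, MpPOD164, also named after its values were seen, rose in both genotypes and kept its call with voom (adjusted p = 0.0218). It was at 309, 300 and 285 CPM in mock Tak-1 against 531, 509 and 508 CPM in mock Mpdes6fad5. After wounding it was at 618, 675 and 898 CPM against 730, 762 and 780 CPM. The list had 15 smaller and 1 larger member with a constant of 0.1 CPM and 9 and 1 with voom.

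Mock Mpdes6fad5 replicate 1 was the highest of its group in the peroxidases whose mock levels are given above. Over the 189 mock-level genes with a smaller response it was the highest in 105 (55.6%). The share was 24.9% over mock-level genes with a larger response. Over wounded-level genes it was 34.3% for smaller and 38.4% for larger responses. Without it the peroxidase list had 17 smaller and 3 larger members. Its part in the mock differences beyond these values was not tested.

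The 189 mock-level genes with a smaller response also included a few cell wall and cupin genes, from lists called in shares of 13.8% and 9.38%, below the 14.8% of all tested genes. MpCupin36, of a family that includes germin-like proteins, was at 0.362, 0.481 and 0.398 CPM in mock Tak-1 against 10.1, 5.70 and 4.61 CPM in mock Mpdes6fad5, and at most 0.211 CPM in every wounded library of both genotypes. Its response difference was -2.43 ± 0.32 (adjusted p = 8.04e-05), not called with voom (adjusted p = 0.0903). MpGH16.25, of a glycoside hydrolase family that acts on wall polysaccharides, had at most 0.155 CPM in Tak-1 and 3.93, 2.28 and 1.88 CPM in mock Mpdes6fad5. Its neighbours in family, MpGH16.28, MpGH16.29 and MpGH16.30, formed a run of 4 adjacent tested genes, with Mp4g00690, that all had smaller responses, MpGH16.30 by both levels, and voom did not call MpGH16.28 (adjusted p = 0.65) or MpGH16.29 (0.12).

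Mock-level genes with a larger response started lower in Mpdes6fad5. MpAMT1.2, an ammonium transporter gene, was at 216, 250 and 227 CPM in mock Tak-1 against 85, 105 and 107 CPM in mock Mpdes6fad5. After wounding it was at 203, 236 and 153 CPM in Tak-1 and 167, 214 and 203 CPM in Mpdes6fad5, which overlapped. It rose in the mutant by 0.97 ± 0.12, while the change in Tak-1 was not called (-0.25 ± 0.12), and the response difference was 1.21 ± 0.18 (adjusted p = 0.000193).

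A few phenolic pathway genes had the same form. MpPKS/CHS20, of the polyketide synthase family that includes chalcone synthase, was at 84.3, 62.2 and 54.4 CPM in mock Tak-1 against 29.4, 23.6 and 22.3 CPM in mock Mpdes6fad5, and at 165, 166 and 206 against 164, 165 and 142 CPM after wounding. Its response difference was 1.18 ± 0.26 (adjusted p = 0.00536). MpPAL-like2, of the family that starts phenylpropanoid synthesis, gave 1.10 ± 0.28 (adjusted p = 0.012) in the same form, with a call that a constant of 5 CPM ended (adjusted p = 0.139). Of 63 tested phenylpropanoid and flavonoid genes 5 had a larger and 5 a smaller response (15.9% called, near the 14.8% of all tested genes), and 3 of these 10 differed at the mock level only. The counts became 20 and 8 without wounded Tak-1 replicate 3 and 14 and 5 without mock Tak-1 replicate 3.

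Polyphenol oxidases with a larger response fell more in Tak-1. MpPPO38, of enzymes that oxidise phenolics to quinones, was at 21.2, 18.1 and 22.7 CPM in mock Tak-1 against 4.80, 4.28 and 6.78 CPM in wounded Tak-1. In Mpdes6fad5 it was at 2.27, 1.18 and 1.37 CPM in mock and 1.28, 1.53 and 1.68 CPM after wounding. The mutant was lower at both levels and more so in mock, and the response difference was 1.76 ± 0.23 (adjusted p = 6.94e-05). Its neighbours MpPPO39 and MpPPO40 were also larger, with calls that voom did not keep (adjusted p = 0.69 and 0.0676). MpPPO31 rose in both genotypes and less in the mutant (-1.57 ± 0.27, adjusted p = 0.000929), but the sign turned with voom (0.99, adjusted p = 0.711). Of 38 tested members 3 were larger and 2 smaller (13.2% called, near the 14.8% of all tested genes), and 14 and 3 without wounded Tak-1 replicate 3.

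Among jasmonate signalling genes, MpNINJA alone of 4 tested members was called for a response difference, beside 14.8% of all tested genes. It was at 97.7, 115 and 95.2 CPM in mock Tak-1 against 135, 135 and 129 CPM in mock Mpdes6fad5. After wounding it was at 188, 187 and 150 CPM in Tak-1 and 152, 146 and 158 CPM in Mpdes6fad5, where replicate 3 of Tak-1 fell within the mutant's range. The difference was -0.57 ± 0.11 (adjusted p = 0.00226), with a mock difference of 0.38 and a wounded difference of -0.20.

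MpJAZ, the repressor, did not pass the test. It was at 23.9, 31.0 and 27.9 CPM in mock Tak-1 against 176, 192 and 155 CPM in wounded Tak-1, and at 17.5, 20 and 18.8 CPM in mock Mpdes6fad5 and 117, 121 and 121 CPM in wounded Mpdes6fad5. The mutant was lower without overlap in both conditions, by 0.53 each time, and the response difference of -0.01 ± 0.13 (adjusted p = 0.979) had a 95% interval of -0.27 to 0.26. MpCOI1, the receptor gene, gave 0.31 ± 0.12 (adjusted p = 0.0879). MpCYP94L1, related to jasmonate-oxidising enzymes of flowering plants, was higher in mock Mpdes6fad5, at 11.0, 11.4 and 9.75 CPM against 4.45, 4.73 and 4.91 CPM, and overlapped after wounding, which gave a smaller response (-1.01 ± 0.15, adjusted p = 0.000294).

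Of 16 tested desaturase and elongase genes 1 had a larger and 1 a smaller response (12.5% called, near the 14.8% of all tested genes), and 3 and 1 without wounded Tak-1 replicate 3. The mutant was lower for 13 of the 16 in mock, against 20.4% of all tested genes, and for 9 when wounded, against 25.6%. The list includes the targeted genes MpDES6 and MpFAD5, which were lower in the mutant in both conditions. MpFAD8, a desaturase gene, was at 95.7, 79.4 and 92.8 CPM in wounded Tak-1 and 40, 39.1 and 34.4 CPM in wounded Mpdes6fad5; it rose in Tak-1 by 0.70 ± 0.08 and was not called in the mutant (-0.07 ± 0.08). MpELO2, an elongase gene, was at 26.8, 28.0 and 31.0 CPM in mock Tak-1 against 18.2, 18.9 and 16.4 CPM in mock Mpdes6fad5, and overlapped after wounding, with a response difference of 0.62 ± 0.12 (adjusted p = 0.00182).

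Transcription factors moved both ways. Of 13 tested WRKY genes, a plant family active in defence, 3 had larger and 3 smaller responses, beside 7.47% and 7.37% of all tested genes, and 6 and 4 without wounded Tak-1 replicate 3. MpWRKY11 was at 1659, 1829 and 1389 CPM in wounded Tak-1 and 961, 1032 and 1073 CPM in wounded Mpdes6fad5, from 787, 731 and 797 and 710, 718 and 697 CPM in mock. Its response difference was -0.54 ± 0.14 (adjusted p = 0.0144). MpWRKY13 and its close neighbour MpWRKY12 were lower in mock Mpdes6fad5 (-0.67 and -0.45) and higher after wounding (0.41 and 0.19), so that their responses were larger by 1.08 ± 0.17 and 0.64 ± 0.09. One wounded Tak-1 library of MpWRKY13, replicate 3 at 35.3 CPM, lay within the range of wounded Mpdes6fad5, 34.9 to 41.3 CPM.

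MpBHLH2 rose steeply in both genotypes. It was at 10.6, 12.6 and 9.56 CPM in mock Tak-1 against 5.21, 6.06 and 5.60 CPM in mock Mpdes6fad5, then at 207, 243 and 223 CPM in wounded Tak-1 and 279, 246 and 280 CPM in wounded Mpdes6fad5. The order of the genotypes reversed without overlap, and the response difference was 1.10 ± 0.13 (adjusted p = 2.18e-05). MpAP2B3-2, of the AP2/B3 families, reversed the other way, from 21.1, 23.3 and 21.6 against 27.7, 29.4 and 29.1 CPM in mock to 107, 105 and 84.5 against 60.7, 55.6 and 62.0 CPM after wounding. The transporter gene MpABCB10 had the same form, at 46.3, 53.6 and 48.2 against 75.5, 70.4 and 60.0 CPM in mock and 409, 439 and 437 against 249, 274 and 305 CPM after wounding (-1.10 ± 0.11, adjusted p = 9.73e-06).

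**Figure D5:**
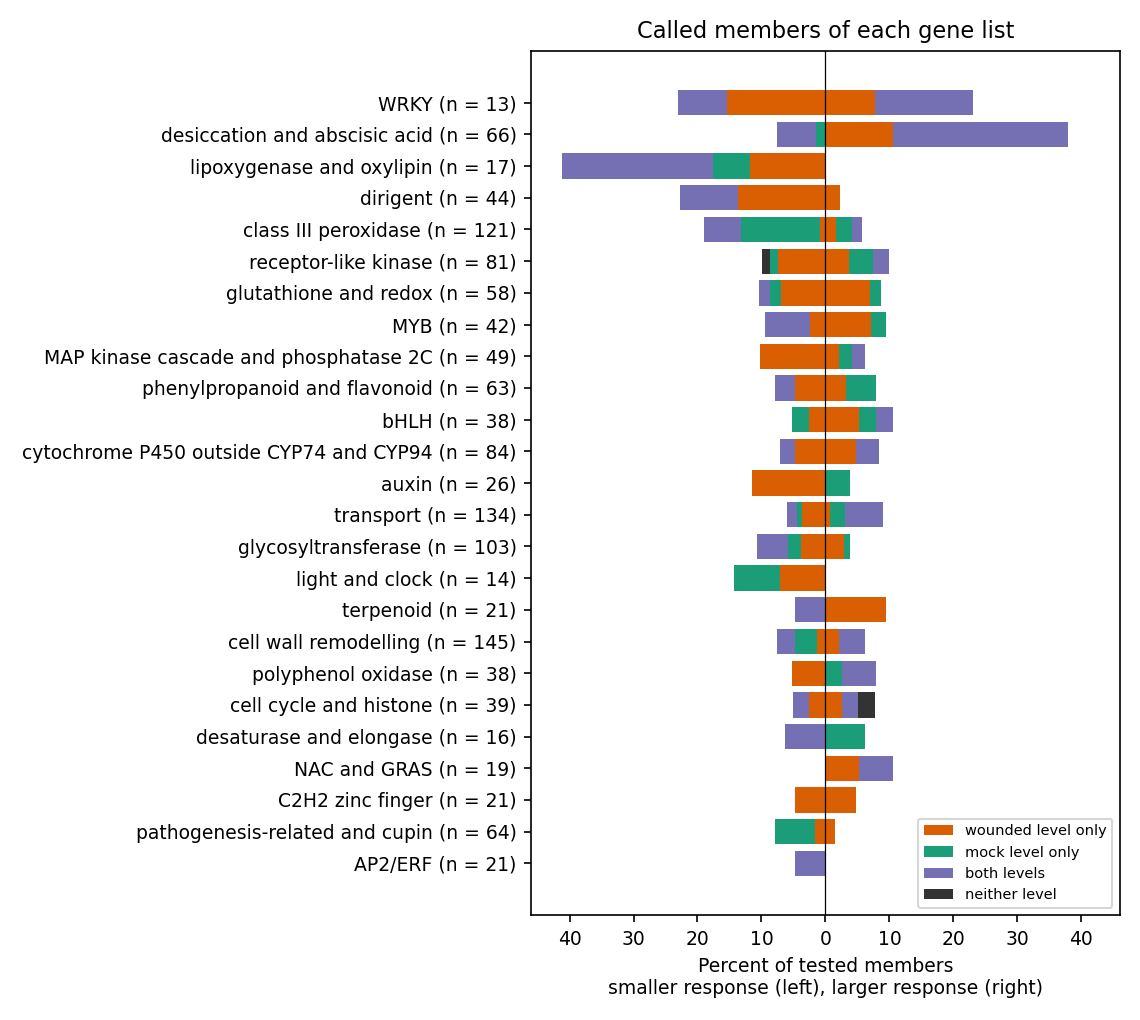
Bars give the percent of tested members with a smaller (left) or larger (right) response for the 25 gene lists with at least 10 tested members, coloured by the level at which the genotypes differed. Lipoxygenase genes extend only to the left, desiccation genes mostly to the right, and the peroxidase bar to the left is mainly the mock-level colour.

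The remaining lists are given by their larger and smaller members, beside 7.47% and 7.37% of all tested genes. Called shares ran from 0% to 19.8% in these lists, apart from 25% (1 of 4) in hormone conjugation and oxidation. Receptor-like kinases had 8 larger and 8 smaller members of 81, transport genes 12 and 8 of 134, cell wall genes 9 and 11 of 145, and glycosyltransferases 4 and 11 of 103. MYB genes had 4 and 4 of 42, bHLH genes 4 and 2 of 38, MAP kinase cascade and phosphatase 2C genes 3 and 5 of 49, glutathione and redox genes 5 and 6 of 58, and cytochrome P450 genes 7 and 6 of 84. The pathogenesis-related and cupin list had 1 and 5 of 64, auxin genes 1 and 3 of 26, terpenoid genes 2 and 1 of 21, cell cycle and histone genes 3 and 2 of 39, C2H2 zinc fingers 1 and 1 of 21, NAC and GRAS genes 2 and 0 of 19, AP2/ERF genes 0 and 1 of 21, light and clock genes 0 and 2 of 14, hormone conjugation and oxidation genes 0 and 1 of 4, and calcium signalling genes 0 and 0 of 6. Many of these counts moved by over 1.5 times when 1 library was left out. Without wounded Tak-1 replicate 3 there were 12 larger cupin members, 17 cell wall, 11 cytochrome P450, 8 glutathione and redox, 7 glycosyltransferase and 6 cell cycle members, and 14 smaller MAP kinase members, 7 auxin, 4 AP2/ERF, 4 C2H2, 4 light and clock and 2 calcium members. Without mock Tak-1 replicate 2 there were 9 smaller MYB, 8 smaller MAP kinase and 4 smaller bHLH members. Leaving out other libraries lowered counts, to 5 larger and 8 smaller for cell wall genes, 5 smaller for receptor-like kinases and for transport genes, 3 smaller for glutathione and redox, 2 larger for MYB and bHLH and 1 larger for glycosyltransferases at the lowest. Of marker lists for other tissues, none of 3 oil body genes was called, while MpGEX2 of the male germline (0.97, adjusted p = 0.00222) and MpKAR of the gemma cup (0.33, adjusted p = 0.0392) were. The other tested markers of these 2 tissues, MpDUO1 of the germline (0.17, adjusted p = 0.754) and MpGCAM1 of the gemma cup (0.35, adjusted p = 0.48), were not called. Neither were the 6 tested MpMTPSL genes of oil bodies, MpRBCS, MpCLE2 or MpYUC2.

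The responses of Mpdes6fad5 and Mpcoi1 can be set side by side, although their differences from Tak-1 share the same Tak-1 libraries. MpDIR61 and MpDIR41 had no read in any Mpcoi1 library, mock or wounded, whereas both rose in Mpdes6fad5. MpLOX4 was at 6.79 ± 0.903 CPM (SD, n = 3) in mock and 3.68 ± 1.04 in wounded Mpcoi1, and the responses of Mpdes6fad5 and Mpcoi1 differed by 2.80 ± 0.33 (adjusted p = 9.36e-06). MpBHLH2 rose to 27.4 ± 0.997 CPM in wounded Mpcoi1, far below both other genotypes. MpJAZ was at 25.8 ± 1.4 CPM in wounded Mpcoi1.

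For some other genes the response of Mpdes6fad5 also differed from that of Mpcoi1, and for others such a difference was not called. MpHSP90-1 reached 829 ± 67.1 CPM in wounded Mpcoi1, with a response difference from Tak-1 of 0.03 ± 0.10 and a difference of -0.95 ± 0.10 between the mutants (adjusted p = 2.02e-06). MpABCB10 reached 384 ± 19.1 CPM, and the mutants differed by -1.07 ± 0.11 (adjusted p = 2.98e-06). MpRDR1/2-2 was at 0.0864 ± 0.0729 CPM in wounded Mpcoi1, where the mutants differed by 2.80 ± 0.19 (adjusted p = 1e-08). For MpNPF5, MpPPO38 and MpUGT35 a difference between the mutants was not called, at -0.14 ± 0.26, 0.20 ± 0.23 and -0.05 ± 0.20.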

How the data were processed

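The deposited table holds log2 CPM with a small prior for each of the 18 libraries. The submitters' processing notes name, with no version, edgeR, HTSeq, HISAT2 and Trim Galore as the authors' tools. The sources used here do not give the genome build or strand. The shared floor of 0.0886 CPM was removed, and all values up to 1000 reads came out as whole reads within 0.01. The scaling was kept as deposited.

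Genes with at least 1 CPM in at least 3 libraries were tested as log2(CPM + 1) in a cell-means model of all 18 libraries with limma 3.58.1 (R 4.3.3), eBayes with a mean trend, and a call was a Benjamini-Hochberg adjusted p below 0.05. The test of the response difference was tried on simulated counts with the same relative spread for all genes and changes only in wounded Mpdes6fad5. The sorting by source was not tried on simulated data. p-values measure the spread between pooled-plant replicates. A constant of 1 CPM understates changes of low genes. Alternatives were other constants, filters and scalings, robust eBayes, only the 4 groups, a 2-fold minimum, a replicate block, a source rule by size (a level differing at least 3 times as much as the other) and leaving out each library; library totals and voom on recovered reads were added after the data were seen.

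Symbols came from a RefSeq table of MpTak2_v7.1, which matched 12752 tested genes and named 2516; no coordinates are given because the build of the files is unknown. The comparison and the 29 gene lists were chosen with earlier results of these data known, and 5 list patterns were corrected for unrelated symbols after the symbols were read. Named genes with a symbol were the 15 largest differences each way, 6 for each source and up to 4 for each list, and without a symbol the 3 largest each way; the text cites part of them. List members named outside this rule were chosen after their values were seen. Python 3.11.15, pandas 2.3.3, numpy 2.4.6 and matplotlib 3.10.9 were used. No sequences are shown.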

Additional observations from a re-analysis of the deposited data

Results flagged for a closer look

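The effect of wounding differed between the genotypes by a test of the difference itself for 1961 genes, of which 987 had a larger and 974 a smaller signed response in Mpdes6fad5; their values are given with the comparison. In 108 of them the called responses ran in opposite directions, 20 of them with a symbol. Among the named genes these were MpR2R3-MYB15, MpGST33 and Mp8g13560. MpR2R3-MYB15, of a transcription factor family, fell in Tak-1 by 0.35 and rose in Mpdes6fad5 by 0.51, a difference of 0.86. MpGST33, a glutathione S-transferase gene, fell in Tak-1 by 0.35 and rose in the mutant by 0.53, a difference of 0.88. Only its mock difference was called. Its wounded levels also stood apart, at 6.91, 7.67 and 7.26 CPM in Tak-1 and 8.98, 8.99 and 9.21 CPM in Mpdes6fad5. Mp8g13560, the neighbour of MpLEA-like61, was at 0.264, 0.139 and 0.308 CPM in wounded Tak-1 and 9.07, 9.55 and 12.6 CPM in wounded Mpdes6fad5, a difference of 2.84. Groups of 3 libraries were too small for a test of outlying samples.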

How the results depend on the processing

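With robust eBayes, voom, library totals, quantile or median-of-ratios scaling, a constant of 0.1 or 5 CPM, a filter on mean CPM (at least 5) or none, between 1537 and 2127 genes were called, within 1.5 times of 1961. The share of larger responses, 50.3%, was 41.1% with median-of-ratios scaling and 55.1% without a filter. Library totals moved the median mock and wounded differences of all genes to 0.136 and 0.137, and 1263 of 1839 shared genes kept their source. With only the 4 groups, 1593 were called and 17 had neither level called. A 2-fold minimum left 343 genes, 238 larger and 105 smaller, 192 by the wounded level, 53 by the mock level, 98 by both and 0 by neither. Sorting by size put 820 at both levels. Leaving out each library gave 1494 to 2826 called genes, 777 to 1463 larger, 693 to 1363 smaller, 802 to 1489 by the wounded level, 244 to 495 by the mock level, 326 to 783 by both and 14 to 71 by neither. Without wounded Tak-1 replicate 3 the numbers were 2826, 783 (both) and 71 (neither); without mock Tak-1 replicate 3, 244 (mock), 326 and 14; without mock Mpdes6fad5 replicate 2, 327 and 17. Neither level was called for 17 without wounded Mpdes6fad5 replicate 1, 19 without mock Tak-1 replicate 1 and 14 without wounded Tak-1 replicate 2. Among genes chosen by the naming rule, signs turned for MpLEA-like36 (-0.611 with 0.1 CPM, -2.36 with voom), and with voom for MpLEA-like34 (-1.47), MpLEA-like39 (-0.0715), MpLEA-like40 (-0.149), MpPPO31 (0.99) and MpLOX6 (0.748); among other called list members, with voom, for MpLEA-like35 (-2.24), MpLEA-like53 (-0.13), MpPOD70 (0.02), MpPOD81 (-0.70), MpPOD158 (0.77), MpCAT1 (-0.81) and MpABCG5 (-0.27). The uncalled MpJAZ went from -0.01 to 0.0107 with 0.1 CPM, 0.151 with quantile scaling, 0.022 with voom and up to 0.0882 without a library (-0.0908 to 0.0882 over the 12 left-out libraries). The cause of these shifts was not tested, apart from the weight that a constant gives to low values. Correlations of same-numbered libraries ran from -0.334 to 0.182, and those of other pairs from -0.218 to 0.318. These similar ranges cannot settle whether same-numbered libraries were handled together, and the labels name no block. With the replicate block 1969 genes were called, 1856 of them shared. The planned edgeR and DESeq2 fits were not run. The deposited values are log2 units, and voom was run on the recovered reads instead. Changes of genes below the detection limit of 0.107 to 0.158 CPM could not be seen.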
